A study of Mus musculus with 7 samples.

Results

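The genes of the mitosis and DNA replication programme were examined in whole fetal testes of wild-type and Glis3 mutant mouse embryos at embryonic day (E) 14.5. A list of 43 symbols was looked up in the deposited gene table, and all 43 were found among its 24739 genes. The list covers entry into mitosis (7 genes), the spindle checkpoint (5), spindle assembly (4), the centromere and chromosomal passenger complex (6), the central spindle and cytokinesis (8), chromosome structure (2), replication licensing (8) and DNA synthesis (3). GLIS3 is a Krüppel-like zinc finger transcription factor, and the study asked what its loss does to male germ cells. RNA-Seq of rRNA-depleted total RNA gave 7 libraries, 3 labelled wild-type (WT) and 4 labelled Glis3 mutant, each from the testis pair of 1 embryo on a C57BL/6 background. The mutants were homozygous for the global Glis3 zf5 null allele (Glis3 zf5/zf5), a deletion that takes in exon 4, so every cell of the embryo carried it and the testis was measured as a mixture of germ, Sertoli, Leydig and other cells. In such bulk samples, fewer cells of a type and less RNA per cell cannot be told apart.

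A dividing cell licenses its replication origins by loading MCM helicases with the help of CDC6 and CDT1, copies its DNA, and then enters mitosis through cyclin B and CDK1. The spindle checkpoint holds the chromosomes until each kinetochore is attached, and the central spindle and contractile ring then split the cell. In the fetal testis, germ cells leave the cycle and enter mitotic arrest at about this stage, while Sertoli cells and their somatic neighbours go on dividing.

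Promoter sequences are shown for 5 members because the licensing and mitotic genes differ in the short motifs that their promoters share. RefSeq promoter windows (GRCm38.p6, the assembly also called mm10) were matched for 38 of the 43 members, which gave 42 windows since some genes have more than 1 start, and were compared with all 32851 windows of the same length. The first motif was the CCAAT box (CCAAT or its reverse complement ATTGG), which was present in 73.8% of member windows and 37.4% of all windows. The next was the cell cycle homology region (CHR), searched as TTTGAA or TTCGAA on both strands, and the last was an E2F core, searched on both strands in 4 forms. Its forms were TTTGGCG, which Mcm6 carries, then TTTCGCG, which Cdk1 carries, and as further variants the letters TTTCCCG as well as the letters TTTGCCG. The windows searched ran from 250 bases before the start to 50 after it. The sequences below are the first 280 bases of that window, run 5′ to 3′ and have every match in capitals. They belong to Cenpf (chr1:189688057-189688336, minus strand) and Bub1 (chr2:127831830-127832109, minus strand), the members with the largest differences, to Cdk1 (chr10:69352883-69353162, minus strand), the member most above wild-type, to Mki67 (chr7:135716350-135716629, minus strand), the usual proliferation marker, and to Mcm6 (chr1:128359676-128359955, minus strand), a licensing gene for contrast.
Cenpf: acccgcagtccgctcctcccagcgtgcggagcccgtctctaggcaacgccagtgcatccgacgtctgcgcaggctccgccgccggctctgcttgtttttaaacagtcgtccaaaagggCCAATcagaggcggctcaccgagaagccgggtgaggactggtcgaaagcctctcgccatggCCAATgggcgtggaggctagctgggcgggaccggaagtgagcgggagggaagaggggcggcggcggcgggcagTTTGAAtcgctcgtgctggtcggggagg
Bub1: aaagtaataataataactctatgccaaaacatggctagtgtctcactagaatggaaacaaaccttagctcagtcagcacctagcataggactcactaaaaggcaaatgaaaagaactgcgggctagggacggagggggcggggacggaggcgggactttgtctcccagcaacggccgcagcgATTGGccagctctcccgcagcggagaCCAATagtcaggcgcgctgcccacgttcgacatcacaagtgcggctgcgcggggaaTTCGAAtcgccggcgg
Cdk1: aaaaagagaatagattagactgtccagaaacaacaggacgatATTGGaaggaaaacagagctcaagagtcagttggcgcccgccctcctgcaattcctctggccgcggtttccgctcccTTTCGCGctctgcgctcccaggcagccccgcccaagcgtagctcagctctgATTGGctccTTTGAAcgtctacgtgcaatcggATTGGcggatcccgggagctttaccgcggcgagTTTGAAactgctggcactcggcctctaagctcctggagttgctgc
Mki67: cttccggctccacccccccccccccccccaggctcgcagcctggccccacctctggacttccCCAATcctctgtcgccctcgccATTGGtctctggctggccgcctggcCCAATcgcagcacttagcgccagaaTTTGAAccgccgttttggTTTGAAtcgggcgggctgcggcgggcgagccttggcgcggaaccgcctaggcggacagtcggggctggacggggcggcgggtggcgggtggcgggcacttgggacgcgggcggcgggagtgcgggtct
Mcm6: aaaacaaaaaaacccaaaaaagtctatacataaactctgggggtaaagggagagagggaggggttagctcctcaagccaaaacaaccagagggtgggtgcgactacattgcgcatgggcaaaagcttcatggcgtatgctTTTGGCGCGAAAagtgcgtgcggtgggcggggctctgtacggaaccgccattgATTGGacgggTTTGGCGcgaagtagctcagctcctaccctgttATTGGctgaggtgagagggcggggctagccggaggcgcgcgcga

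A CHR lay in 26 of the 31 windows of mitotic members (83.9%), in 2 of the 11 windows of licensing and DNA synthesis members (18.2%) and in 19.2% of all windows. Within 50 bases of the start it was found in 24 of the 31 mitotic windows (77.4%), in 0 of the 11 replication windows and in 5.31% of all windows. In the sequences above, Cenpf and Bub1 carried 1 CHR each just past the start, Cdk1 carried a pair before it, and Mki67 had its pair farther upstream. The E2F core showed the opposite split, with 6 of 11 replication windows (54.5%), 4 of 31 mitotic windows (12.9%) and 6.70% of all windows, and Mcm6 carried 3 matches, of which 2 overlap, with no CHR. Windows of the same gene can overlap, as for Ect2 and Prc1, so the same site can be counted in more than 1 window. These matches describe letters in the window and do not show that a factor was bound.

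Before the members are compared, the libraries need a description. Glis3 itself stood at 7.63, 6.89 and 2.91 FPKM (fragments per kilobase of transcript, scaled for library depth) in WT replicates 1 to 3, and at 3.86, 3.26, 2.90 and 2.66 FPKM in mutant replicates 1 to 4. The library labelled WT replicate 3 was therefore within the range of the mutants, although reads from exons outside the deletion are still counted and the value is only a partial check of the label (log2 fold change -0.69 ± 0.28 (SE), limma, adjusted p = 0.268). The same library was low in germ cell markers. The summed level of the 10 markers, Ddx4, Dazl and Pou5f1 among them, was 1426, 1130 and 606 FPKM in the WT libraries and 488 to 662 FPKM in the mutants. All 10 were lower in the mutants on average, 8 of them at an unadjusted p under 0.05 and 0 at an adjusted one. None was at 0 in any library. Of all genes tested, 47.9% were lower on average, and at that unadjusted level 8.79% were lower and 8.21% higher. The 8 fetal Leydig cell markers were all higher in the mutants, 7 at an unadjusted p under 0.05, with summed levels of 1802 to 2918 FPKM in WT and 2809 to 3400 FPKM in mutants, and 9 of 10 Sertoli cell markers were higher (1 at an unadjusted p under 0.05), with sums of 650 to 877 and 837 to 974 FPKM. The Leydig and Sertoli sums overlapped between the genotypes, and so did the remaining ones, at 1860 to 4571 against 1101 to 3464 FPKM for erythroid genes, 44.8 to 78.9 against 61.0 to 99.4 FPKM for macrophage genes, 130 to 160 against 144 to 158 FPKM for endothelial genes and 8.12 to 11.0 against 7.68 to 9.70 FPKM for mesonephric genes. All 8 macrophage markers were higher in the mutants, 2 at an unadjusted p under 0.05. The part of these cell type differences in the results that follow was not tested, and values without the library labelled WT replicate 3 are given where they differ most.

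The programme as a whole differed little between the genotypes. All 43 members passed the filter on low values, with mean levels from 7.33 FPKM for Cdc6 to 286 FPKM for Top2a. The mean log2(FPKM + 0.5) of the 43 genes was 5.58, 5.53 and 5.61 in the WT libraries and 5.50, 5.49, 5.53 and 5.55 in the mutants. The lowest WT library thus stood level with the third mutant and below the fourth, and the groups overlapped. Between the highest and lowest of the 7 libraries a member differed by 1.08-fold (Racgap1) to 1.66-fold (Cdca3), with a median of 1.26-fold and 41 of 43 members under 1.5-fold. The coefficient of variation over all libraries had a median of 7.88% for the members and 11.1% for all genes tested. These sets were not matched for abundance. The means of 14 members were in the top 10% of genes tested, and the lowest was at percentile 40.7.

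On the log2(FPKM + 0.5) scale, 0 of the 43 members passed an adjusted p of 0.05 (limma, Benjamini-Hochberg over 13988 genes), where 1 gene of all those tested did (0.00715%). The log2 fold change, mutant minus wild-type, had a median of -0.05 for the members and 0.01 for all genes, with a range of -0.44 to 0.23 among the members. The sign was negative for 27 members and positive for 16, where 47.9% of all genes were negative. At an unadjusted p under 0.05, 10 members were lower in the mutants and 1 was higher, against backgrounds of 8.79% and 8.21% (17% in either direction). Every one of these 11 belongs to the 32 mitotic members, and none to the 11 licensing and DNA synthesis genes, a split whose difference was not tested. It did not hold in every set of libraries, since Mcm2, Mcm3 and Mcm6 joined the lower genes without WT replicate 2, and Tyms the higher ones without the library labelled WT replicate 3. The groups did not overlap for 7 members lower in the mutants, namely Cenpf, Bub1, Kif20b, Mad2l1, Ccnb1, Kif20a and Kif2c, and for 1 that was higher, Cdk1, where 7.59% and 7.31% of all genes separated in those directions.

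**Figure D1:**
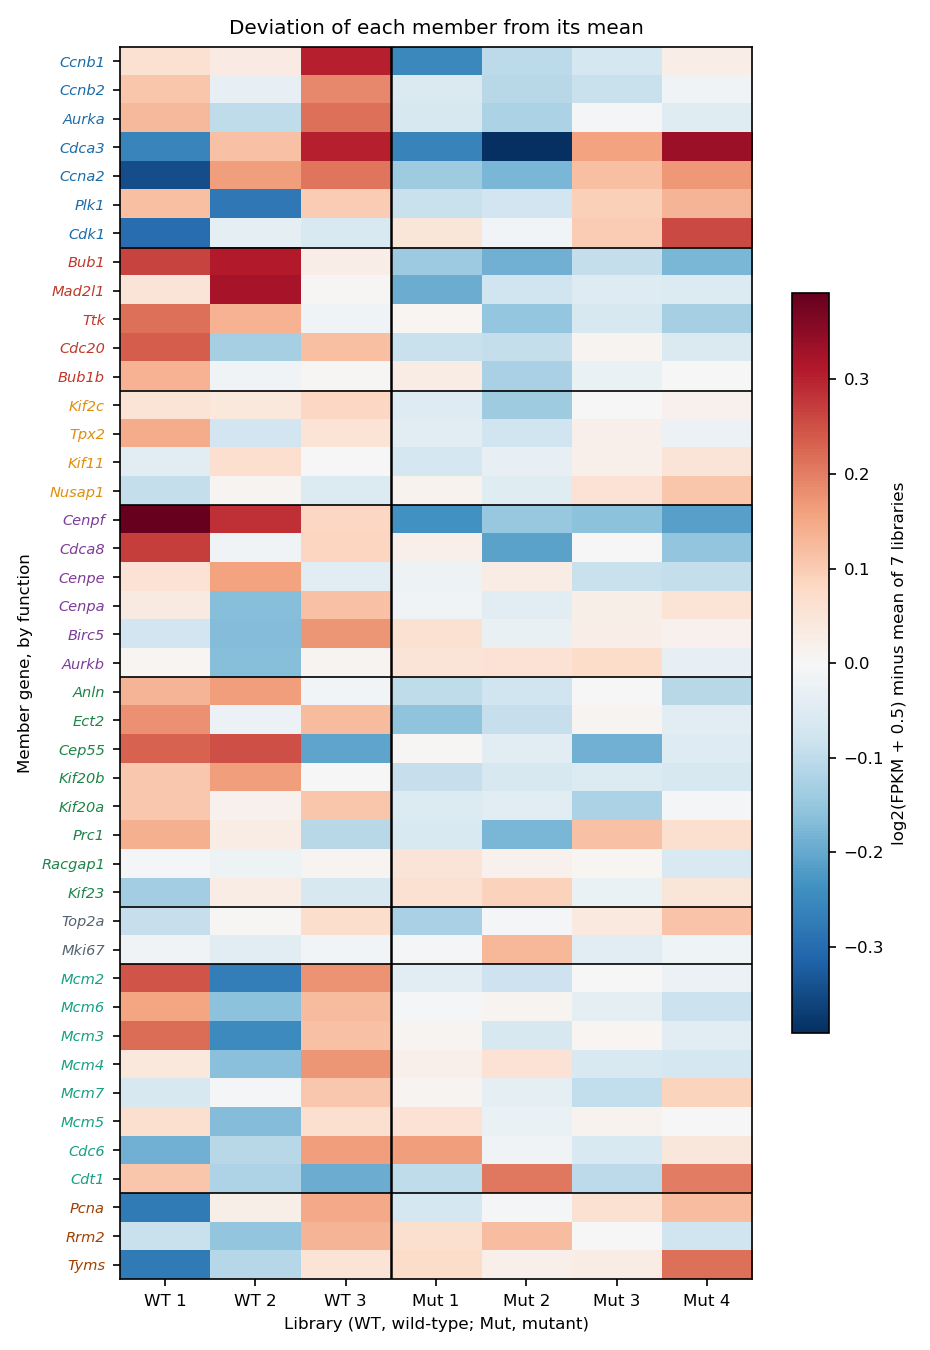
Each row is 1 of the 43 members, ordered by function with gene names coloured by group, and each column is a library; colour gives log2(FPKM + 0.5) minus that gene's mean over the 7 libraries, red above and blue below. The spindle checkpoint rows and Cenpf are mostly red in WT and mostly blue in mutants, with WT replicate 3 paler than the other WT libraries for Cenpf and Bub1, while the licensing rows vary as much among WT libraries as between genotypes.

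The choice of libraries and scaling mattered for how many members stood out. Without the library labelled WT replicate 3, 2 members passed the adjusted threshold, Cenpf and Bub1, where 722 of 14019 genes did (5.15%), and at an unadjusted p under 0.05 there were 7 members lower and 2 higher, against 13.1% and 10.5% of all genes. When each library was instead scaled to the same sum of FPKM, 36 of 43 members were lower with a median of -0.11, while the median of all genes moved from 0.01 to -0.05, and 1 member alone (Cenpf) was lower at an unadjusted p under 0.05 and 0 were higher. Over all genes that scaling left 527 lower and 166 higher at this level (3.77% and 1.19%), where the values as deposited gave 1230 and 1149, and 47 genes passed the adjusted threshold (0.336%). The sum of FPKM ran from 694243 to 1018680 per library, and the single highest gene took 25.2% to 31.4% of it.

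Entry into mitosis is driven by CDK1 with its cyclins, and its members went in both directions. Cdk1, the kinase that triggers mitosis, was at 83.0, 99.6 and 98.1 FPKM in WT and at 106, 101, 110 and 122 FPKM in mutants. Its mutant libraries all lay above the WT libraries, by 0.23 ± 0.09 on the log2 scale (SE; 95% interval 0.02 to 0.43; limma, adjusted p = 0.257). Without WT replicate 1 the value was 0.15. The unadjusted p of Cdk1 was no longer under 0.05 without WT replicate 1, mutant replicate 3 or mutant replicate 4. Ccnb1, the cyclin B1 partner of that kinase, was the reverse, with 37.1, 36.3 and 44.0 FPKM in WT against 29.8, 33.1, 33.9 and 36.2 FPKM in mutants. The highest mutant value was just under the lowest WT value, and the log2 fold change was -0.23 ± 0.09 (limma, adjusted p = 0.260). Without the library labelled WT replicate 3 the Ccnb1 value was -0.15 (limma, adjusted p = 0.351). Its unadjusted p was also not under 0.05 without mutant replicate 1, 2 or 3. Ccnb2, the second B-type cyclin, averaged 64.1 ± 4.9 FPKM in WT (SD, n = 3) and 57.4 ± 1.7 FPKM in mutants (SD, n = 4), with overlapping libraries and a log2 fold change of -0.15. Ccna2, cyclin A2, which acts in S phase and in early mitosis, had the highest mean of this group and ranged from 81.0 to 119 FPKM among WT libraries and from 91.0 to 116 FPKM among mutants, and it overlaps Exosc9 on the genome. Aurka, Plk1 and Cdca3 overlapped between the genotypes, with log2 fold changes of -0.14, 0.04 and -0.09. The ratio of Ccnb1 to Cdk1 FPKM within a library, chosen after the values were seen, was 0.447, 0.365 and 0.449 in WT and 0.282, 0.326, 0.309 and 0.296 in mutants.

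All 5 members of the spindle checkpoint group lay below wild-type in FPKM, where 47.9% of all genes did. Their median log2 fold change was -0.20. At an unadjusted p under 0.05, 3 of the 5 were lower (8.79% of all genes), but only 1 without mutant replicate 2. Bub1, the kinase that recruits checkpoint proteins to kinetochores, measured 50.2, 51.8 and 42.4 FPKM in WT and 37.7, 36.6, 39.0 and 36.8 FPKM in mutants. The 4 mutants were close together and below every WT library. The log2 fold change was -0.35 ± 0.08 (95% interval -0.53 to -0.17; limma, adjusted p = 0.168), a difference of -21.6%. Without the library labelled WT replicate 3 it was -0.44 ± 0.06 and passed the threshold (limma, adjusted p = 0.0111).

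Mad2l1, which encodes the MAD2 inhibitor of the anaphase-promoting complex, stood at 42.7, 51.6 and 41.3 FPKM in WT and at 35.9, 39.0, 39.8 and 39.7 FPKM in mutants. The genotypes did not overlap, although the gap between the lowest WT and the highest mutant was smaller than the spread among WT libraries, and the log2 fold change was -0.22 ± 0.09 (limma, adjusted p = 0.258). Without WT replicate 2, the highest library, it was -0.12. The unadjusted p of Mad2l1 was not under 0.05 without that library, mutant replicate 1 or mutant replicate 2. Ttk, the MPS1 kinase at the top of the checkpoint, averaged 26.2 ± 2.1 FPKM in WT (n = 3) and 22.8 ± 1.2 FPKM in mutants (n = 4), a log2 fold change of -0.20. Bub1b, which encodes the BUBR1 checkpoint protein and was the most abundant member of the group, measured 84.4 ± 4.9 and 80.2 ± 3.7 FPKM (log2 fold change -0.07, 95% interval -0.22 to 0.07). Cdc20, the activator that the checkpoint restrains, had a log2 fold change of -0.13 with overlapping libraries, and it shares genome sequence with its neighbour Elovl1, which unstranded reads cannot separate. The ratio of Bub1 to Bub1b FPKM within a library, also chosen after the values were seen, averaged 0.571 ± 0.062 in WT and 0.469 ± 0.021 in mutants.

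The largest difference of all 43 members was that of Cenpf, a large coiled-coil protein of the kinetochore and nuclear matrix that accumulates towards mitosis. Cenpf lies at chr1:189640614-189688086 on the minus strand (mm10) and measured 45.8, 42.5 and 36.8 FPKM in WT against 29.4, 31.4, 31.1 and 30.0 FPKM in mutants. The mutants were close together, whereas the WT libraries were more widely spread, and WT replicate 3 was the nearest to the mutants. The log2 fold change was -0.44 ± 0.08 (95% interval -0.62 to -0.26; limma, adjusted p = 0.133), a difference of -26.4% with an interval of -35.0% to -16.5%. Without the library labelled WT replicate 3 it was -0.53 ± 0.07 and passed the threshold (limma, adjusted p = 0.00819). The ratio of Cenpf to Mki67 FPKM within a library, chosen after the values were seen, was 1.14, 1.08 and 0.911 in WT and 0.725, 0.703, 0.786 and 0.745 in mutants.

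Other kinetochore and passenger genes had smaller differences than Cenpf. Cenpe, the kinetochore motor, and Cdca8, the borealin subunit of the passenger complex, had log2 fold changes of -0.10 and -0.20 with overlapping libraries. Birc5, which encodes survivin, the most abundant member of this group, measured 62.3 ± 7.8 FPKM in WT and 63.8 ± 1.6 FPKM in mutants (log2 fold change 0.04, 95% interval -0.15 to 0.23). Aurkb, the kinase of the same complex, and Cenpa, the histone variant of centromeric chromatin, were at 0.09 and 0.01.

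**Figure D2:**
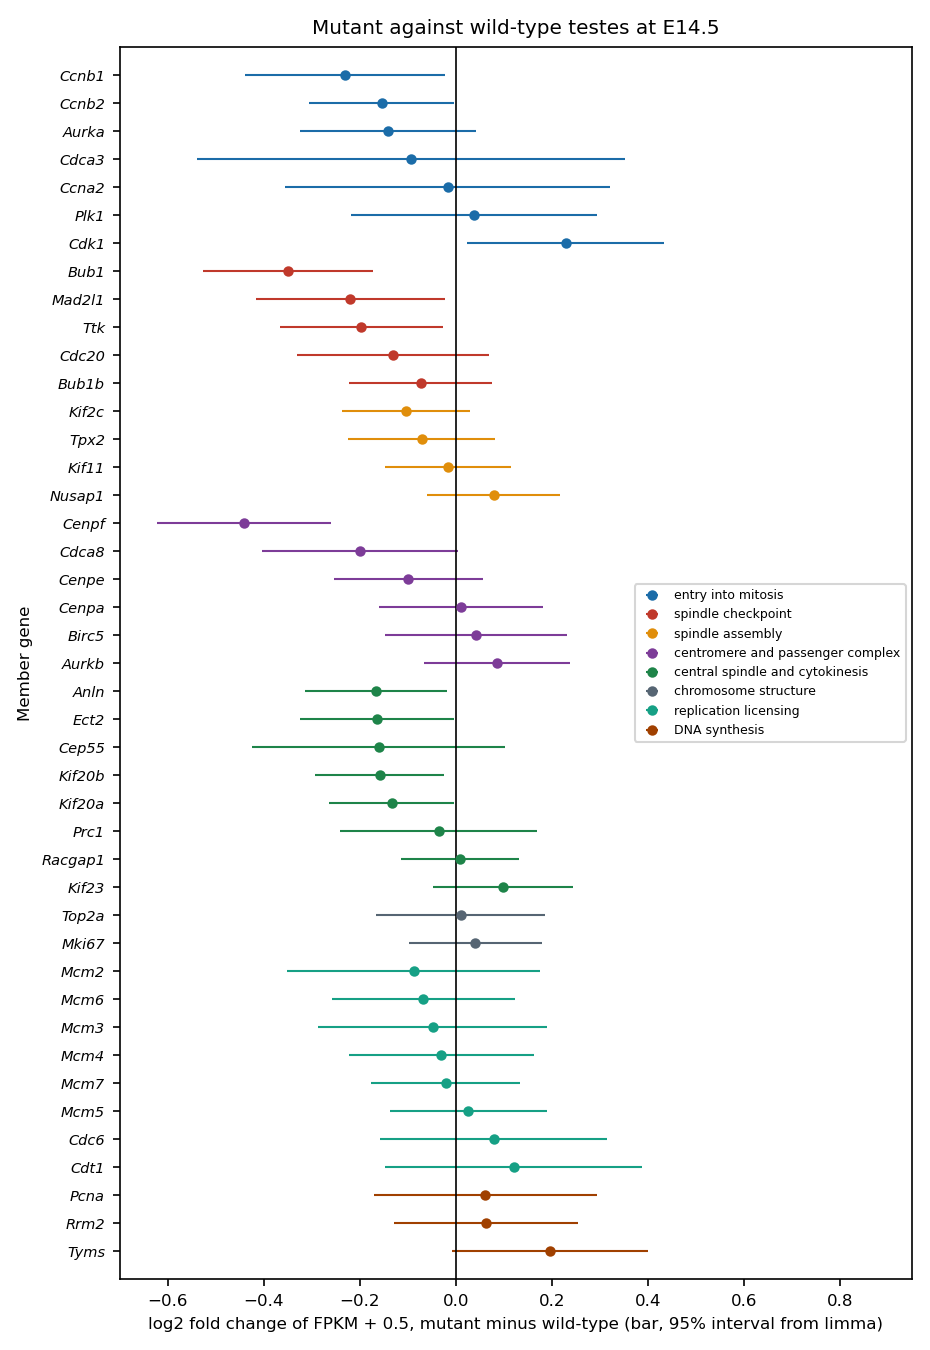
Points give the log2 fold change of FPKM + 0.5, mutant minus wild-type, for each of the 43 members with the 95% interval from limma, coloured by function (3 WT and 4 mutant libraries). The 11 licensing and DNA synthesis members all have intervals that cover 0, and the intervals of 11 mitotic members do not, from Cenpf at -0.44 to Cdk1 at 0.23.

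Among the genes of the central spindle and cytokinesis, 6 of 8 lay below wild-type, 4 of them at an unadjusted p under 0.05 (8.79% of all genes), with a group median of -0.15. That count was not stable, and ran from 0 to 3 when single libraries were left out, with 0 without WT replicate 1, mutant replicate 1 or mutant replicate 4. Kif20b, a kinesin of the midzone and midbody, was at 36.1, 37.6 and 33.5 FPKM in WT and at 31.4, 32.1, 32.3 and 32.1 FPKM in mutants. The 4 mutants were almost equal and all were below the WT libraries (log2 fold change -0.16 ± 0.06; limma, adjusted p = 0.242). Kif20a, the kinesin that carries the passenger complex to the midzone and the most abundant of the group, averaged 84.8 ± 3.1 FPKM in WT and 77.3 ± 2.6 FPKM in mutants without overlap (log2 fold change -0.13 ± 0.06; limma, adjusted p = 0.285). It overlaps Brd8 and Cdc23 on the genome, so its reads may include theirs. Anln, the anillin scaffold of the contractile ring, measured 32.5 ± 2.1 and 28.9 ± 1.0 FPKM (log2 fold change -0.17 ± 0.06; limma, adjusted p = 0.252), and Ect2, the exchange factor that switches on RhoA at the cleavage site, measured 41.5 ± 3.0 and 37.0 ± 1.8 FPKM (-0.16 ± 0.07; limma, adjusted p = 0.286). For both, 1 WT library was within the mutant range. Cep55, Prc1, Racgap1 and Kif23, which complete the midzone and midbody machinery, had log2 fold changes of -0.16, -0.04, 0.01 and 0.10. Cep55 was at 28.2 and 28.6 FPKM in WT replicates 1 and 2 and at 20.7 FPKM in the library labelled WT replicate 3, without which its value was -0.31 ± 0.07 with separate groups (limma, adjusted p = 0.0575), and without WT replicate 2 it was -0.08.

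Spindle assembly genes differed less. Kif2c, the microtubule-depolymerising kinesin of the centromere, averaged 54.6 ± 0.8 FPKM in WT and 50.9 ± 2.4 FPKM in mutants, and its libraries separated although the log2 fold change was only -0.10 (95% interval -0.24 to 0.03). Kif11, the kinesin that pushes spindle poles apart, was at 75.3 ± 2.8 and 74.4 ± 2.7 FPKM (log2 fold change -0.02, 95% interval -0.15 to 0.11). Tpx2 and Nusap1, microtubule-associated proteins of the spindle, were at -0.07 and 0.08, and Nusap1 overlaps Oip5 on the genome.

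The chromosome structure genes did not differ detectably in FPKM at these replicate numbers. Mki67, which encodes the Ki-67 coat protein of mitotic chromosomes, was at 40.3, 39.5 and 40.4 FPKM in WT and at 40.6, 44.7, 39.6 and 40.3 FPKM in mutants. Mutant replicate 2 was the highest library and the others lay close together, and the log2 fold change was 0.04 (95% interval -0.10 to 0.18). Top2a, the topoisomerase that untangles sister chromatids and the most abundant of the 43 members, measured 269, 287 and 300 FPKM in WT and 262, 285, 294 and 309 FPKM in mutants. The genotypes covered the same range (log2 fold change 0.01, 95% interval -0.17 to 0.19).

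Replication licensing and DNA synthesis gave 0 of 11 members at an unadjusted p under 0.05 with all 7 libraries, 3 (Mcm2, Mcm3 and Mcm6, all lower) without WT replicate 2 and 1 (Tyms, higher) without the library labelled WT replicate 3. Mcm6, a subunit of the replicative helicase and the most abundant licensing gene, measured 159, 128 and 156 FPKM in WT and 142, 144, 139 and 135 FPKM in mutants. WT replicate 2 was the lowest of all libraries and the other WT libraries the highest, so the mutants lay inside the WT range (log2 fold change -0.07, 95% interval -0.26 to 0.12). The remaining helicase subunits Mcm2, Mcm3, Mcm4, Mcm5 and Mcm7 ran from -0.09 to 0.03. The loading factors Cdc6 and Cdt1 were the least abundant members, with means of 7.10 and 7.57 FPKM in WT and 7.50 and 8.28 FPKM in mutants (log2 fold changes 0.08 and 0.12). Pcna, the sliding clamp of the DNA polymerases, was at 52.3, 64.5 and 70.4 FPKM in WT and at 60.5, 63.3, 66.1 and 69.1 FPKM in mutants (log2 fold change 0.06, 95% interval -0.17 to 0.29). The WT range covered the mutants, and the Pcna value was 0.15 without the library labelled WT replicate 3 and -0.06 without WT replicate 1. Tyms, thymidylate synthase, averaged 24.7 ± 2.9 FPKM in WT and 28.3 ± 1.8 FPKM in mutants (log2 fold change 0.20, 95% interval -0.01 to 0.40; limma, adjusted p = 0.310). Without the library labelled WT replicate 3 the Tyms groups separated, at 0.28 ± 0.08 (limma, adjusted p = 0.1004), and without WT replicate 1 the value was 0.11. Rrm2, the small subunit of ribonucleotide reductase, was at 0.06. Ccnb1, Ccnb2, Pcna and Tyms have named pseudogene copies, between which reads could have been split.

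**Figure D3:**
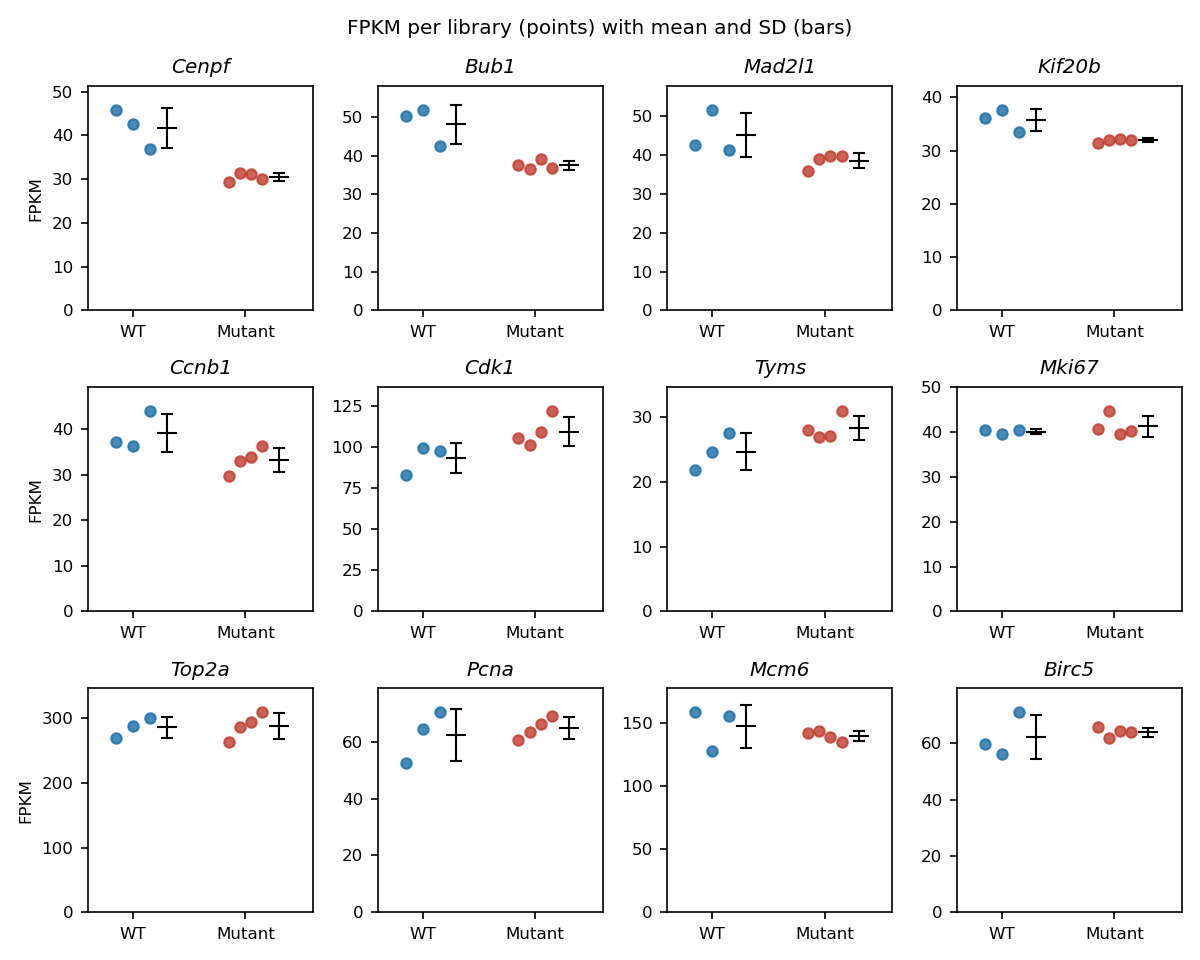
FPKM in each library for 12 members, with blue points for the 3 WT and red points for the 4 mutant libraries in replicate order, and black bars for the mean and SD on axes that start at 0. Cenpf, Bub1, Mad2l1, Kif20b and Ccnb1 have all mutant points below the WT points, Cdk1 has them above, and Mki67, Top2a, Pcna, Mcm6, Birc5 and Tyms overlap.

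The lack of a call does not show equal levels, and the intervals set how large a difference these libraries leave possible. As percent of the wild-type level, the interval of the mutant difference in FPKM ran from -6.57% to 13.2% for Mki67. It ran from -10.9% to 13.8% for Top2a and from -11.1% to 22.6% for Pcna. Cdca3, with the widest spread, had an interval of -0.54 to 0.35 on the log2 scale.

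Wider lists of cell cycle genes were read in the same fit. Of 115 such genes, all tested, 0 passed the adjusted threshold, and 14 were lower (12.2%) and 6 higher (5.22%) at an unadjusted p under 0.05, beside 8.79% and 8.21% of all genes, with a median log2 fold change of -0.03. Leaving out single libraries gave 5 to 19 lower, 5 without WT replicate 1 and 19 without WT replicate 2. The 40 other genes of the mitotic machinery gave 7 lower (17.5%) and 0 higher, though 1 lower without WT replicate 1 or mutant replicate 2, led by Ncapd2, a condensin subunit (40.0 ± 2.8 FPKM in WT and 30.0 ± 6.7 FPKM in mutants, -0.43 ± 0.16; limma, adjusted p = 0.236), and Espl1, the separase that cleaves cohesin (-0.32 ± 0.14; limma, adjusted p = 0.291). Ncapd2 was at 24.7, 23.8, 35.3 and 36.2 FPKM in mutant replicates 1 to 4, and its lowest WT library was at 36.9 FPKM. The Espl1 difference rests in part on WT replicate 1, at 13.0 FPKM above the other WT libraries, and without it the value was -0.13. The 38 replisome and nucleotide supply genes gave 5 lower (13.2%) and 4 higher (10.5%), beside 8.79% and 8.21% of all genes. The groups separated downwards for 6 and upwards for 1, where 7.59% and 7.31% of all genes separated. Orc1, the origin recognition subunit (-0.33), and Pole, the leading strand polymerase (-0.27 ± 0.07; limma, adjusted p = 0.169), were the largest in the lower direction, and Tk1, thymidine kinase (0.33), and Rpa3, a subunit of the single-strand binding protein (0.24), in the higher. Without WT replicate 1 the Tk1 value was 0.21.

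The 28 regulators of the cycle gave 2 lower (7.14%) and 0 higher, beside 8.79% and 8.21% of all genes. The lower genes were Cdk6, a kinase of the G1 phase (5.97, 3.75 and 3.37 FPKM in WT against 2.92, 2.82, 2.80 and 2.70 FPKM in mutants, -0.52 ± 0.17; limma, adjusted p = 0.206), and E2f5, a repressive E2F factor (-0.14). For Cdk6 the WT libraries spread more than the gap to the mutants, and without WT replicate 1 the value was -0.29. The 9 inhibitors gave 2 higher (22.2%) and 0 lower, beside 8.21% and 8.79% of all genes. Without the library labelled WT replicate 3 the inhibitors gave 1 higher and 2 lower. Scaling to the same sum of FPKM left 0 in either direction. The higher genes were Cdkn2c, the INK4 inhibitor p18 (0.48 ± 0.16; limma, adjusted p = 0.210), and Cdkn1b, the p27 inhibitor of cyclin-dependent kinases (35.0 ± 2.1 FPKM in WT and 44.6 ± 8.3 FPKM in mutants, 0.33 ± 0.14; limma, adjusted p = 0.275). Cdkn1b was at 37.2, 34.9 and 33.0 FPKM in WT and at 51.3, 52.2, 37.2 and 37.6 FPKM in mutants. Mutant replicates 3 and 4 were thus level with WT replicate 1. Cdkn2c was at 6.49, 9.34 and 5.35 FPKM in WT and averaged 9.77 ± 0.32 FPKM in mutants, so WT replicate 2 was level with them, and without the library labelled WT replicate 3 the value was 0.31.

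A second readout of the same genes came from the deposited counts of reads at LINE, SINE and LTR elements, which were summed over the elements that lie wholly inside each gene. Of the 113984 reads so assigned to the members, 61.6% lay outside exons of GENCODE M21, in libraries made without poly-A selection. All 43 members had enough reads, from a mean of 27.4 to 1620 per library with a median of 307, and the tests covered 12884 genes. In edgeR's quasi-likelihood test 0 members passed the adjusted threshold, where 1 gene did (0.00776%). At an unadjusted p under 0.05, 4 members were higher and 0 lower in mutants, against 6.54% and 5.93% of all genes. The median log2 fold change was 0.10 for the members and -0.00 for all genes, with 10 members negative and 33 positive, where 49.9% of all genes were positive. The groups separated for 7 members upwards and for 1, Mad2l1, downwards, where 5.2% and 5.28% of all genes did so.

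In this readout the members with the largest FPKM differences did not stand out. Cenpf had 175, 181 and 167 CPM (counts per library size, scaled by TMM) in WT and 170, 163, 173 and 180 in mutants, with a log2 fold change of -0.02 (95% interval -0.19 to 0.15) over a mean of 575 reads. The genotypes overlapped fully, and the interval does not include the FPKM value of -0.44. Bub1, whose element reads all lay outside exons, had 122, 141 and 123 CPM in WT and 129, 139, 125 and 137 in mutants, a log2 fold change of 0.05 (95% interval -0.14 to 0.23), which leaves out the FPKM value of -0.35. Of the remaining spindle checkpoint genes, Cdc20 and Bub1b were at 0.29 and 0.08, and Ttk and Mad2l1 at -0.05 and -0.38. The difference between the readouts was not itself tested, and both come from the same libraries.

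Members that were higher at element reads at an unadjusted p under 0.05 were Kif23 (0.28 ± 0.09; edgeR, adjusted p = 0.266), Mki67 (0.27 ± 0.09; edgeR, adjusted p = 0.289), Cdk1 (0.19 ± 0.07; edgeR, adjusted p = 0.323) and Tyms (0.24 ± 0.10; edgeR, adjusted p = 0.343). Mki67 measured 173, 201 and 218 CPM in WT and 245, 256, 223 and 226 in mutants, so its libraries separated here and overlapped in FPKM. Cdk1 measured 223, 240 and 239 CPM in WT and 275, 256, 268 and 271 in mutants, and was above wild-type in both readouts. Without WT replicate 1 the Tyms value was 0.12. In that setting 1 member was higher and 1 lower at an unadjusted p under 0.05, and the median of the members was 0.06. For Tyms 3.3% of the reads lay outside exons, and with elements that overlap an exon left out its value was -0.32 ± 0.19. With that restriction, added after the data were seen, 5 members were higher and 0 lower at an unadjusted p under 0.05, namely Kif23, Cdk1, Mki67, Kif11 and Cenpe, where 5.91% of all genes were higher, and the median of the members was 0.09. Mad2l1 was the lowest member, at -0.38 ± 0.18 over a mean of 48.0 reads. Ccnb1, lower in FPKM, was at 0.19 ± 0.10. Of the 27 members with a negative FPKM difference, 18 were positive at element reads, and of the 16 with a positive one, 15 were positive.

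**Figure D4:**
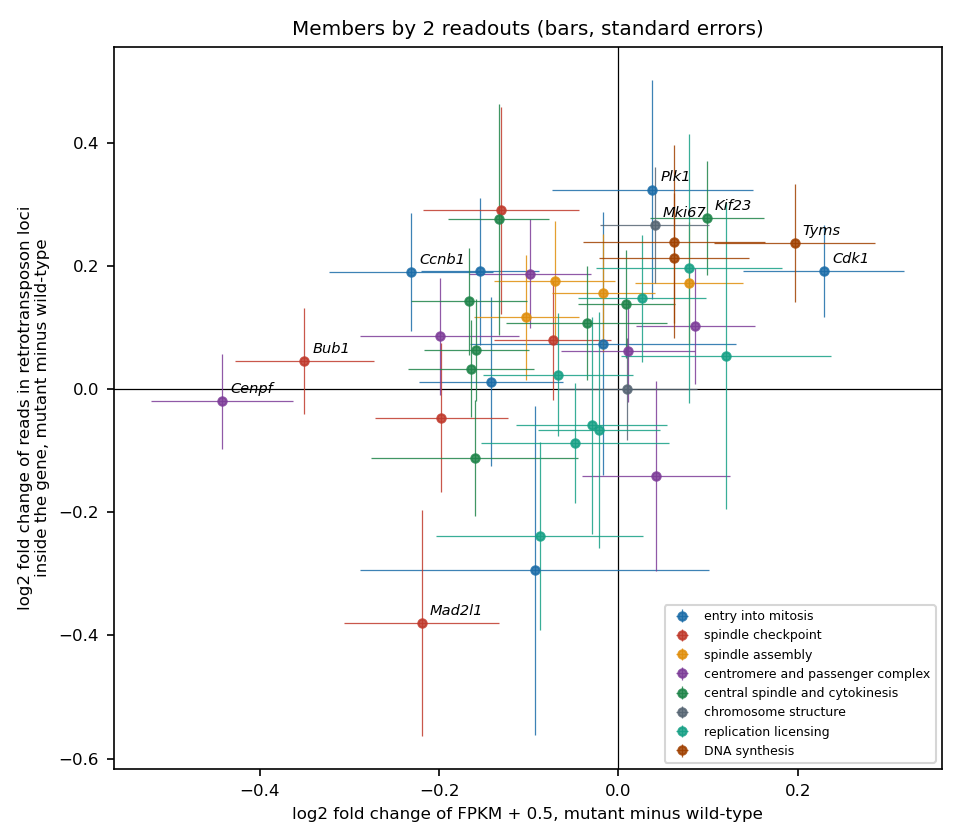
Each point is 1 of the 43 members, with the log2 fold change of FPKM + 0.5 on the horizontal axis and that of element reads inside the gene on the vertical axis, both mutant minus wild-type, bars giving standard errors and colours the function. Cenpf and Bub1 lie far left but close to 0 on the vertical axis, Cdk1 and Tyms lie above 0 on both, and 33 of 43 points are above the horizontal line.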

How the data were processed

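The members and lists were chosen with earlier results of these data known. Sample labels gave the groups and the replicate numbers. To make the gene table, the authors removed reads of low base quality, mapped the others without strand to mm10 with TopHat2 2.0.12 (per the labels) and used Cuffquant and Cuffnorm with RefSeq models; the deposited values are FPKM with that scaling. Reads with 1 mapped position were kept by the authors for the element table, whose deposited values are raw counts per RepeatMasker element with HTSeq-count. Both deposited headers lack 1 tab between the WT and mutant columns, so columns were read by position in the order named. No per-sample column was left out.

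A mean of 0.5 FPKM or more was required of a gene, and limma 3.58.1 was fitted in R 4.3.3 to log2(FPKM + 0.5), two-sided, using lmFit and eBayes with its trend option, with Benjamini-Hochberg adjustment over all genes tested and a threshold of 0.05; the pseudocount understates changes of low genes. The Cuffdiff test of the study needs aligned reads and was not run. Counts of elements wholly inside a gene (bedtools 2.31.1) were summed per gene and tested with edgeR 4.0.16 (quasi-likelihood, TMM, two-sided, mean of at least 10 reads). Element reads totalled 3454317 to 4670830 per library; the depth behind FPKM is unknown. Both tests were checked on simulated data with changes larger than that of any member. That check does not show whether differences as small as those of the members would be found. Each library was 1 embryo. No libraries were copies of each other, and a check for identical FPKM found 1 shared value, between mutant replicates 1 and 3. In each functional group the most abundant member, the one with the largest difference and each with an unadjusted p under 0.05 were described, with Mki67, Top2a and Pcna; from each wider list, up to 2 genes a direction were. Alternatives were other pseudocounts, filters, scalings and weights, DESeq2 1.42.0, a replicate block and leaving out each library; 2 more were added after the data were seen. Same-numbered WT and mutant libraries had correlations of deviations of 0.20, -0.18 and 0.23, and the other combinations ran from -0.30 to 0.17. These values do not settle whether the numbers mark pairs, and the main fits did not use them as pairs. Motifs were searched in Python 3.11.15 in RefSeq windows of GRCm38.p6.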

Additional observations from a re-analysis of the deposited data

Results flagged for a closer look

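Of the 43 members, 0 had a mutant library far from the other 3 by Dixon's test; the 3 WT libraries are too few for it, and chance alone would mark about 1 in 20 groups.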

How the results depend on the processing

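The count of members past the adjusted threshold stayed at 0 under every alternative for FPKM and for element reads except without the library labelled WT replicate 3, where FPKM gave 2, Cenpf and Bub1 (and 1 gene of the wider lists). Scaling to the same sum of FPKM left 1 member lower and 0 higher at an unadjusted p under 0.05, 0 separated in either direction, a median of -0.11, and 2 wider genes lower and 0 higher. Under that scaling, which moved the median of all genes from 0.01 to -0.05, Birc5 (-0.022), Mki67 (-0.024), Pcna (-0.0023) and Top2a (-0.055) turned sign, and Top2a did so under quantile normalization (-0.065) and under scaling without the top 100 genes (-0.014), where 3 wider genes were higher. Centring on the median gave 5 members lower, 0 higher and 0 separated upwards. Array weights gave 6 lower and 0 higher, with 9 wider genes lower and 2 higher, and no trend left 3 wider genes higher.

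With the replicate number as a block, in which mutant replicate 4 has no WT partner and drops out of the contrast, 4 members were lower and 0 higher, 8 wider genes were lower and 3 higher, Top2a was at -0.025 and 2 members were higher at element reads; not every library correlated best with its own number, and no other call changed. The cause of these moves was not tested.

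Leaving out 1 library at a time gave 0 to 2 members called, 3 to 12 lower and 0 to 2 higher at an unadjusted p under 0.05, 7 to 17 separated downwards and 1 to 5 upwards, 0 to 1 wider gene called, and 5 to 19 wider genes lower and 3 to 8 higher. The low and high ends for lower members came without mutant replicate 2 and without WT replicate 2. Values near 0 changed sign, with ranges of -0.030 to 0.14 for Birc5, -0.19 to 0.083 for Ccna2, -0.042 to 0.012 for Kif11, -0.059 to 0.15 for Pcna and -0.032 to 0.054 for Top2a. At element reads, 0 to 1 members were lower and 1 to 10 higher, the ends without WT replicate 1 and WT replicate 2, and Cenpf ran from -0.051 to 0.0058; it was at 0.039 with elements outside exons, and a mean of at least 1 read gave 1 member lower.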
